A study of Camelus dromedarius with 30 samples.

Results

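The kidney medulla of male dromedaries deprived of water for 20 days was compared with that of male dromedaries with free access to water. The comparison rests on 10 of the 30 libraries of the series, 5 from dehydrated and 5 from control camels, which were found by matching the library names in the sample descriptions to the columns of the count table. All animals were 4 to 5 years old, each of the 10 libraries came from a different camel, and the dehydrated camels kept access to feed. The series also holds medulla from 5 rehydrated camels, deprived for 20 days and then watered for 3 days, and cortex from the same 15 animals, which gives 6 groups of 5. Poly(A)-selected RNA was sequenced from pieces of whole medulla, so fewer cells of a type and less RNA per cell cannot be told apart in any value below. Genes of cholesterol synthesis are mentioned only where another result needs them.

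The medulla holds the loops of Henle, the collecting ducts and the straight vessels that run beside them. Salt is pumped out of the thick ascending limb and urea is retained, which keeps the tissue fluid hyperosmotic, and vasopressin opens the collecting duct to water so that it is drawn back into that fluid. The tissue does this at low oxygen, and its cells hold organic osmolytes and chaperones against the high salt. The markers of the medulla were present in the libraries: SLC14A1, a urea transporter of the straight vessels, had 125 to 255 CPM (counts scaled to 1e+06 per library) in the control medulla and a mean of 0.203 CPM in the control cortex. UMOD, the uromodulin gene of the thick ascending limb, had 14296 to 19801 CPM in the control medulla against 2790 to 4436 CPM in the control cortex.

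The 10 libraries held 16799212 to 20005136 read pairs counted on genes. Of 22444 genes in the table, 15376 passed a filter on low counts and were tested, with a biological coefficient of variation of 34%. CPM are scaled by edgeR's TMM factors throughout. Adjusted p-values are those of the quasi-likelihood test in edgeR, adjusted after Benjamini and Hochberg over all tested genes, with all 30 libraries in the fit. A gene is called where its adjusted p is under 0.05. The p-values rest on a spread between libraries that is pooled over the 6 groups. Cortex and medulla of the same camel are treated as independent in it.

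Dehydration changed 259 of the tested genes in the medulla (1.68%), 81 of them higher (0.527%) and 178 lower (1.16%). The groups of 5 did not overlap for 173 of the 259, which are 55 of the higher and 118 of the lower genes. Of all tested genes 582 did not overlap (3.79%), with the dehydrated camels above the controls for 1.75% and below them for 2.04%. The median absolute log2 fold change was 1.12 among the higher and 1.08 among the lower genes, and 46 and 99 of them changed by at least 1 on the log2 scale. The lower genes also held the larger share of the counts. Together they took 3.17% to 3.66% of the counts of each control library, 1.78% to 2.21% of each dehydrated library and 2.52% to 3.20% of each rehydrated library, while the higher genes took 0.285% to 0.362%, 0.546% to 0.726% and 0.324% to 0.481%. Medulla and cortex of the rehydrated camels, which are no side of the contrast but share the fit, were compared for these genes. Of the 178 lower genes, 84 (47.2%) were higher in the cortex than in the medulla of those animals, against 28.1% of all tested genes. Of the 81 higher genes, 45 (55.6%) were higher in the medulla, against 33% of all tested genes. The number of calls rested on single libraries: leaving out dehydration replicate 4 gave 113, control replicate 3 gave 128, dehydration replicate 3 gave 134, control replicate 1 gave 147 and control replicate 5 gave 171. It also rested on the spread shared with the other groups. With the 10 medulla libraries fitted alone, 94 genes were called, among them 81 of the 259.

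The gene that rose most was ACSBG1 (chromosome 27, 21749381 to 21796517, CamDro2), which encodes an acyl-CoA synthetase that activates long-chain fatty acids. It had 0.574, 0.411, 0.223, 0.197 and 0.167 CPM in control replicates 1 to 5 and 83.1, 23.7, 12.8, 39.3 and 15.9 CPM in dehydration replicates 1 to 5. Every dehydrated library was thus far above every control, and the rehydrated libraries, at 1.13 to 9.38 CPM, lay between the groups. The log2 fold change was 6.76 ± 0.54 (SE, n = 5 and 5), or 108-fold higher (edgeR, adjusted p = 2.5e-11). Between rehydrated and dehydrated medulla, where 3.67% of the tested genes were called, ACSBG1 differed by -3.02 ± 0.40 (edgeR, adjusted p = 1.02e-05). In the cortex, where 2.45% of the tested genes were called, ACSBG1 went from a mean of 0.161 to 2.91 CPM (log2 fold change 4.15, edgeR, adjusted p = 0.00462), and the difference between the tissues was not called (edgeR interaction, adjusted p = 0.753).

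ANGPTL4, a secreted inhibitor of lipoprotein lipase, also rose. It had 14.0, 26.1, 14.7, 13.5 and 2.92 CPM in the control and 96.2, 107, 68.3, 57.9 and 117 CPM in the dehydrated libraries, with no overlap. The change was 2.65 ± 0.55 on the log2 scale, 6.26-fold (edgeR, adjusted p = 0.00861). The rehydrated camels were spread from 12.4 to 225 CPM, wider than either other group. In the cortex the log2 fold change was 2.74, from a mean of 2.53 to 17.0 CPM.

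CHI3L1 (chromosome 23, 34095899 to 34103494), a secreted chitinase-like glycoprotein made in injured and remodelling tissue, had 12.3, 11.0, 13.6, 3.26 and 7.68 CPM in the control and 191, 38.5, 32.1, 64.1 and 158 CPM in the dehydrated libraries. The lowest dehydrated library was more than 2-fold above the highest control. The change was 3.34 ± 0.55 on the log2 scale, 10.1-fold (edgeR, adjusted p = 0.000895), and the rehydrated libraries remained at 30.9 to 121 CPM. In the cortex CHI3L1 stood at a mean of 1.75 CPM in control and 1.76 CPM in dehydrated camels. The tissues differed by 3.36 on the log2 scale in this response, with a standard error of 0.99 that left the difference uncalled (edgeR interaction, adjusted p = 0.295). CHI3L1 was the one called gene among 8 genes of a tubule injury list (median 0.50), of which 7 were named through the protein lists, CHI3L1 included. Of the others, ICAM1, an adhesion molecule, stood at -0.28, ANXA3, an annexin, at -0.18, IL18, a cytokine, at 0.04, C3, the central complement component, at 0.33, and TNFRSF11B, osteoprotegerin, at 0.86 (edgeR, adjusted p of 0.405 to 0.981). The last of the 8 were CLU, the secreted chaperone clusterin, at 0.69 (edgeR, adjusted p = 0.175), and VCAM1, an adhesion molecule for leukocytes, at 0.68 (edgeR, adjusted p = 0.33).

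Among the genes at low level, EMB encodes embigin, a membrane partner of monocarboxylate transporters. Its CPM was 0.574, 0.740, 0.390, 0.592 and 0.459 in the control and 1.33, 4.07, 4.61, 6.17 and 3.61 in the dehydrated libraries (log2 fold change 2.82 ± 0.40, edgeR, adjusted p = 4.55e-05). HAL, the histidine ammonia-lyase that opens histidine breakdown, had 0.526, 0.576, 0.390, 0.690 and 1.00 CPM in the control and 3.58, 4.56, 3.42, 4.28 and 1.80 CPM in the dehydrated libraries (log2 fold change 2.44 ± 0.39, edgeR, adjusted p = 0.000152). NCAPH, a subunit of the condensin I complex that compacts chromosomes, rose from 3.13 to 7.12 CPM in the control to 11.7 to 22.1 CPM in the dehydrated libraries, by 1.59 ± 0.29 on the log2 scale (edgeR, adjusted p = 0.00312). None of these groups overlapped.

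Among 8 further genes that rose, C7, a component of the complement membrane attack complex, had 83.8, 124, 110, 66.1 and 139 CPM in the control and 346, 177, 292, 380 and 145 CPM in the dehydrated libraries, so the groups met closely at their edge. Its log2 fold change was 1.35 ± 0.29 (edgeR, adjusted p = 0.0118), and without dehydration replicate 4 the adjusted p was 0.0554. SLC52A3, a riboflavin transporter, rose by 1.45 (edgeR, adjusted p = 0.00782) from 1.39 to 4.2 CPM to 5.24 to 7.86 CPM. SLC45A3, a membrane protein of the sugar transporter superfamily, rose by 1.53 (edgeR, adjusted p = 0.00996). HACD4, a dehydratase of very long-chain fatty acid elongation, rose by 1.18 (edgeR, adjusted p = 0.00454), from a mean of 13.5 ± 4.02 to 30.7 ± 10.7 CPM (SD). In the cortex HACD4 stayed at means of 1.68 and 1.66 CPM. RFTN2, a lipid raft protein, rose by 1.28 and ARMC12, an armadillo repeat protein, by 1.23, each called in all 10 fits that left out 1 library. The calls of GABRA4, a GABA receptor subunit (log2 fold change 2.56), and of C1orf189 (1.46) rested on single libraries: GABRA4 lost its call in 6 of the 10 fits, with an adjusted p of up to 0.0912 without dehydration replicate 4 or 1 of the 5 controls. C1orf189 lost it in 9, each but the fit without dehydration replicate 1, with an adjusted p of up to 0.108 (edgeR). Of the 15 genes with a symbol and the highest fold change without overlap, 12 kept their call in every such fit.

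**Figure D1:**
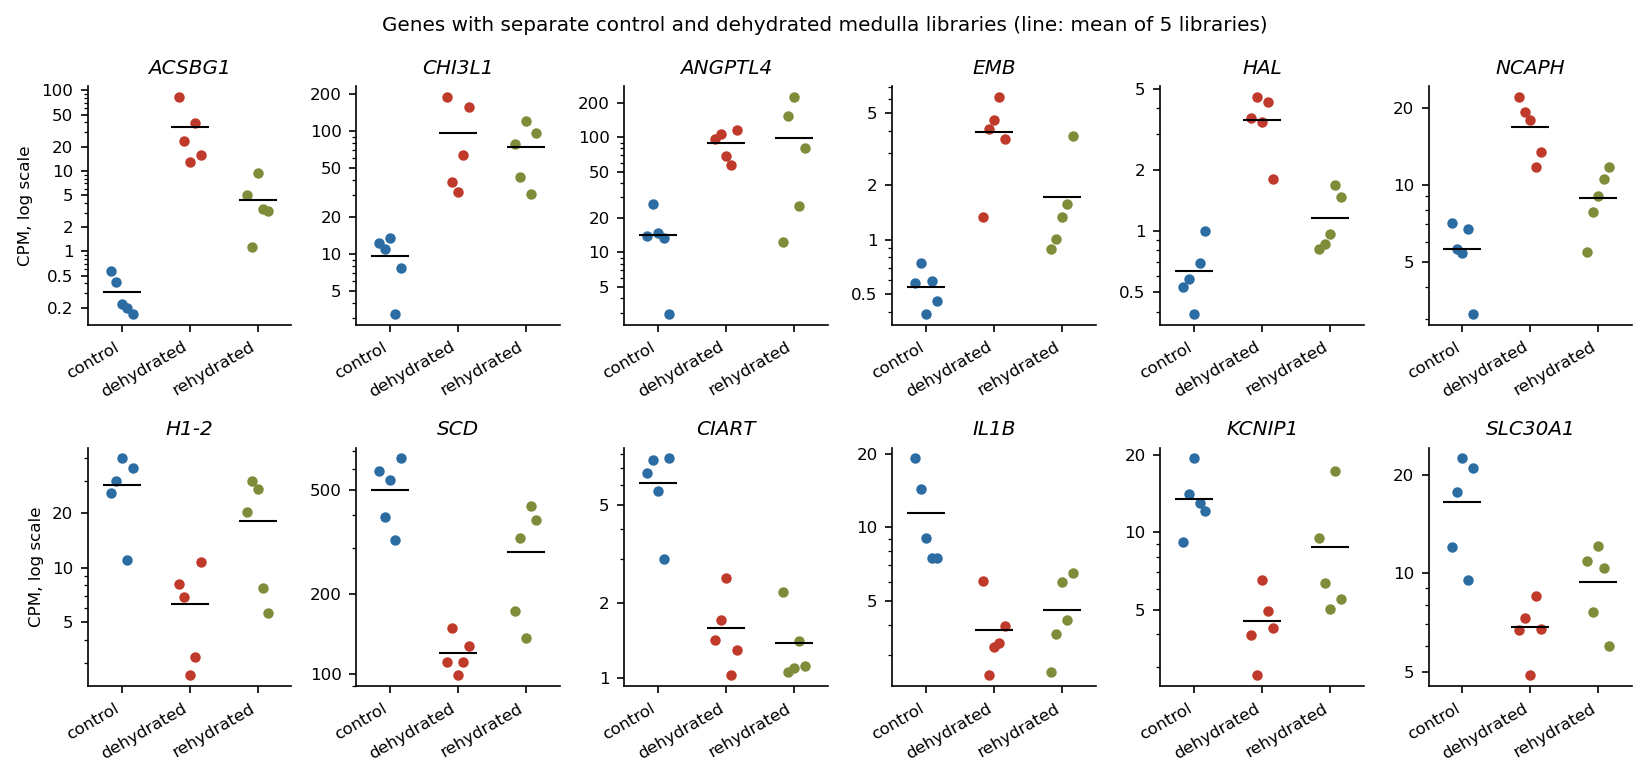
CPM on a log axis in each of the 15 medulla libraries for 6 genes that rose and 6 that fell with dehydration, with 1 point per camel and a line at the mean of 5. No dehydrated point overlaps a control point in any panel, and for ACSBG1 the rehydrated points (1.13 to 9.38 CPM) lie between the other groups.

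SCD and 7 other genes of fatty acid and phospholipid synthesis fell. SCD, the desaturase that makes monounsaturated fatty acids, had 586, 392, 544, 321 and 657 CPM in the control and 111, 149, 98.4, 111 and 127 CPM in the dehydrated libraries. The lowest control was more than 2-fold above the highest dehydrated library, and the rehydrated camels spanned 136 to 433 CPM. The change was -2.07 ± 0.31 on the log2 scale, 4.19-fold lower (edgeR, adjusted p = 0.000213), and in the cortex the mean went from 1179 to 238 CPM. PCYT2, an enzyme of phosphatidylethanolamine synthesis, fell from 214 to 279 CPM to 114 to 156 CPM, by 0.90 ± 0.15 on the log2 scale (edgeR, adjusted p = 0.0007). Of 20 genes of fatty acid and phospholipid synthesis, 8 fell (SCD, PCYT2, THRSP, ELOVL6, AACS, ACSS2, ACLY and HSD17B12) and 2 rose (ACSBG1 and PNPLA3), with a median log2 fold change of -0.69 against 0.01 for all tested genes. THRSP, a regulator of lipogenesis, fell by 2.31 (edgeR, adjusted p = 0.0183) from a mean of 2.71 CPM. AACS, which activates acetoacetate for lipid synthesis, fell by 0.93 (edgeR, adjusted p = 0.00257). The number that fell was 3 without dehydration replicate 4, 4 without dehydration replicate 3, and 5 without control replicate 1, 3 or 5 or dehydration replicate 5. With library sizes alone as the scaling it was 4. PNPLA3, a lipid droplet acylhydrolase, rose by 1.56 (edgeR, adjusted p = 0.0491) and was called without dehydration replicate 2 or 5 but in none of the other 8 fits that left out 1 library. ELOVL6, a fatty acid elongase, fell by 1.22 and lost its call in 4 of the 10 fits (control replicates 2 and 3, dehydration replicates 4 and 5 left out), with an adjusted p of up to 0.0871 (edgeR). For comparison, 24 of 25 genes of sterol synthesis and uptake fell, with a median of -1.71.

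The names used here come from the gene lists of the study. A symbol found in its RNA lists alone was available because the study had called that gene in some RNA comparison, and of 1053 such genes 14.2% were called (5.13% higher, 9.02% lower), with 50.1% below 0 on the log2 scale. Of the 2705 genes whose symbol came from its protein lists, 2.37% were called (0.481% higher, 1.89% lower) and 46.8% were below 0. Over all 3758 genes with a symbol these shares were 5.67%, 1.78%, 3.89% and 47.8%. Counts for the list members named through the protein lists are therefore given beside the main counts of called lists. For fatty acid and phospholipid synthesis these were 9 genes, of which 4 fell and 0 rose. Members of a list that had no symbol or were not tested are missing from its counts. Of 79 listed genes of oxidative phosphorylation 38 were named and tested, and of 43 transport genes of the concentrating nephron 21 were. For the osmotic stress response these were 7 of 18, for the interferon response 7 of 43 and for proximal tubule markers 12 of 43.

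Among the genes outside lipid synthesis with a symbol, a mean of 1 CPM or more and no overlap, the largest fall was that of H1-2 (chromosome 20, 17511172 to 17511813), a linker histone. It had 25.5, 29.8, 39.7, 11.0 and 35.4 CPM in the control and 8.13, 6.89, 2.56, 3.22 and 10.7 CPM in the dehydrated libraries. The highest dehydrated library lay just under the lowest control, replicate 4. The change was -2.17 ± 0.43 on the log2 scale, 4.49-fold lower (edgeR, adjusted p = 0.0062). Histone genes are near-identical copies whose reads can be split between them, and their messages mostly lack poly(A) tails, so this value is uncertain. H2AW, a histone H2A gene, fell by 1.24 and lost its call in 8 of the 10 fits that left out 1 library (those other than control replicate 4 and dehydration replicate 1), with an adjusted p of up to 0.131 (edgeR).

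CIART and USP2, genes tied to the circadian clock, fell. CIART, a repressor in the circadian clock, had 6.69, 7.57, 5.68, 3.01 and 7.68 CPM in the control and 1.42, 1.71, 2.52, 1.02 and 1.29 CPM in the dehydrated libraries. The change was -1.95 ± 0.33 on the log2 scale (edgeR, adjusted p = 0.00111), and the rehydrated libraries were at 1.05 to 2.22 CPM. Between rehydrated and control medulla, where 0.813% of the tested genes were called, CIART was lower by 2.15 on the log2 scale (edgeR, adjusted p = 0.00178). USP2, a ubiquitin protease under clock control, had 45.8, 56.0, 53.1, 36.6 and 61.3 CPM in the control and 27.1, 25.4, 25.2, 18.1 and 20.3 CPM in the dehydrated libraries (log2 fold change -1.12 ± 0.22, edgeR, adjusted p = 0.00597). Both kept their call in every alternative that was run. DBP, a clock-controlled transcription factor, was the third named clock gene, with a log2 fold change of -1.09 and no overlap (edgeR, adjusted p = 0.0528). The sources used here give no hour of tissue collection.

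Other genes that fell encode signalling and transport proteins. IL1B, the cytokine interleukin-1 beta, had 19.2, 14.4, 9.07, 7.50 and 7.47 CPM in the control and 6.07, 2.49, 3.24, 3.38 and 3.95 CPM in the dehydrated libraries (log2 fold change -1.60 ± 0.33, edgeR, adjusted p = 0.00775). KCNIP1, a potassium channel interacting protein, had 9.13 to 19.4 CPM in the control and 2.77 to 6.53 CPM in the dehydrated libraries (-1.58 ± 0.32, edgeR, adjusted p = 0.00667). SLC30A1, the zinc exporter of the plasma membrane, had 12.0, 17.7, 22.4, 9.52 and 20.9 CPM in the control and 6.71, 7.29, 4.87, 8.53 and 6.74 CPM in the dehydrated libraries (-1.27 ± 0.23, edgeR, adjusted p = 0.00231). In none of them did the groups overlap. RAB37, a small GTPase of exocytosis, fell by 1.48 (edgeR, adjusted p = 0.00543). SLC27A3, of the fatty acid transport protein family, fell by 1.07 (edgeR, adjusted p = 0.00926). CRYBG2 fell by 1.49, with an adjusted p of 0.0519 (edgeR) without control replicate 5. CNTFR, the receptor for ciliary neurotrophic factor, fell by 1.23 and lost its call in 3 of the 10 fits (control replicates 3 and 5 and dehydration replicate 4 left out), and FLYWCH2 fell by 1.32 and lost its call in 6 (control replicates 1 to 3 and dehydration replicates 2 to 4 left out), with adjusted p of up to 0.0715 and 0.102 (edgeR). Of the 15 named genes of lowest fold change without overlap, 10 kept their call in every such fit.

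Called genes of energy metabolism all fell, though most members of these lists were not called. Of 38 genes of oxidative phosphorylation, the inner-membrane machinery that makes ATP, 12 fell and 0 rose, and the groups did not overlap for 18 of them. All 38 had a log2 fold change below 0, from -0.96 to -0.30 with a median of -0.53, whereas 48.6% of all tested genes were below 0. The same genes had a median of -0.36 in the cortex. Among the 25 members named through the protein lists, 6 fell and all 25 were below 0. The summed level of the 38 genes was 13008 to 18880 CPM in the control, 7995 to 12041 CPM in the dehydrated and 11794 to 15788 CPM in the rehydrated libraries, so control and dehydrated camels did not overlap. The calls sat mostly in ATP synthase, where 8 of 11 genes fell (median -0.68). In complex I, the NADH dehydrogenase, 2 of 20 were called (median -0.48), and in complex III 2 of 3 (median -0.48). In cytochrome c oxidase 0 of 3 were called, but all 3 were below 0, from -0.67 to -0.59 with a median of -0.63.

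ATP5MC1, for the membrane ring of ATP synthase, had 359, 296, 357, 285 and 243 CPM in the control and 177, 171, 172, 116 and 202 CPM in the dehydrated libraries. It fell by 0.88 ± 0.18 on the log2 scale (edgeR, adjusted p = 0.00709) and kept its call in each of the 10 fits without 1 library. It shares a near-identical mature peptide with ATP5MC3, which fell by 0.78 (edgeR, adjusted p = 0.012) and lost its call without control replicate 3 or dehydration replicate 4 (edgeR, adjusted p of up to 0.0615). Reads may be shared between these 2 genes. ATP5F1B, the catalytic beta subunit, went from a mean of 4025 ± 584 to 2516 ± 293 CPM (SD, n = 5 each), a fall of 0.68 on the log2 scale (edgeR, adjusted p = 0.0266). The number of calls in the list rested on single libraries. It was 1 without control replicate 3 or dehydration replicate 4, 2 without control replicate 1 or dehydration replicate 3, 3 without dehydration replicate 2, and 9 to 14 without each of the other 5, while all 38 genes stayed below 0 in every fit. ATP5F1B lost its call without control replicate 1 or 3 or dehydration replicate 2, 3 or 4, with an adjusted p of up to 0.104 (edgeR). With the medulla libraries fitted alone, 2 genes (15 libraries) or 1 gene (10 libraries) of the list fell, and with DESeq2 18 fell.

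The enzymes that feed this machinery followed the same direction. Of 17 genes of the citric acid cycle and pyruvate entry, 5 fell (ME3, IDH2, MDH1, ACO1 and OGDH) and 0 rose, with 16 below 0 and a median of -0.43. Their median in the cortex was -0.39. IDH2, the mitochondrial isocitrate dehydrogenase, had 882, 1032, 884, 680 and 817 CPM in the control and 390, 434, 523, 418 and 513 CPM in the dehydrated libraries. It fell by 0.91 ± 0.17 on the log2 scale (edgeR, adjusted p = 0.00312), with every dehydrated library under every control. In the cortex IDH2 fell by 0.76 (edgeR, adjusted p = 0.0113). ME3, a mitochondrial malic enzyme, fell by 1.09 (edgeR, adjusted p = 0.00709). MDH1, the cytosolic malate dehydrogenase, fell by 0.58 (edgeR, adjusted p = 0.0221) and lost its call without control replicate 1 or 3 or dehydration replicate 4. The summed level of the list was 5813 to 6359 CPM in the control and 3761 to 4676 CPM in the dehydrated libraries. Among the 6 members named through the protein lists, 2 fell. The number that fell was 2 without control replicate 1 or 3 or dehydration replicate 4, and 3 without control replicate 4 or 5 or dehydration replicate 1, 2 or 3.

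Of 29 genes that oxidise fatty acids, ketone bodies and branched-chain amino acids, 6 fell and 0 rose, and 27 were below 0 (median -0.32). The median of all 29 in the cortex was -0.37. Of the 23 named through the protein lists, 3 fell. Their summed level overlapped, with 5408 to 10006.5 CPM in the control and 4504 to 7298 CPM in the dehydrated libraries for all 29. ACSS1, which activates acetate in mitochondria, had 337, 436, 391, 300 and 381 CPM in the control and 114, 194, 218, 194 and 222 CPM in the dehydrated libraries (log2 fold change -0.97 ± 0.19, edgeR, adjusted p = 0.00454). IVD, the isovaleryl-CoA dehydrogenase of leucine breakdown, fell by 0.93 (edgeR, adjusted p = 0.0034). BDH1, the ketone body enzyme 3-hydroxybutyrate dehydrogenase, fell by 0.91 (edgeR, adjusted p = 0.00861), and ACAD10, an acyl-CoA dehydrogenase family member, by 0.69 (edgeR, adjusted p = 0.00805). The other 2 were MMUT and CPT2. In glycolysis and fructose entry, KHK, ALDOC and PFKM of 8 genes fell, and with any 1 library left out 0 or 1 of them did. Of the 6 named through the protein lists 1 fell, and the summed level of the 8 overlapped, with 2010 to 2326 CPM in the control and 1454 to 2071 CPM in the dehydrated libraries. PFKM lost its call in all 10 of those fits, with an adjusted p of up to 0.106 (edgeR).

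Antioxidant enzymes were lower as well: 5 of 17 fell, 0 rose, and all 17 had a log2 fold change below 0 (median -0.46). Their median in the cortex was -0.29. Among the 12 named through the protein lists, 3 fell and all 12 were below 0. SOD1, the cytosolic superoxide dismutase, had 570, 528, 561, 465 and 452 CPM in the control and 352, 297, 318, 265 and 319 CPM in the dehydrated libraries. That is a fall of 0.73 ± 0.14 on the log2 scale (edgeR, adjusted p = 0.00316) without overlap. MGST1, a microsomal glutathione transferase, had 691, 188, 470, 547 and 917 CPM in the control and 275, 254, 71.7, 78.7 and 245 CPM in the dehydrated libraries, so control replicate 2 lay among the dehydrated camels (log2 fold change -1.61, edgeR, adjusted p = 0.0102). NQO1, a quinone reductase, fell by 0.59 (edgeR, adjusted p = 0.0102), CYGB, cytoglobin, by 1.02 (edgeR, adjusted p = 0.00901), and GSS, glutathione synthetase, by 0.47 (edgeR, adjusted p = 0.0317). The summed level was 2880 to 3943 CPM in the control and 1773 to 2669 CPM in the dehydrated libraries.

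**Figure D2:**
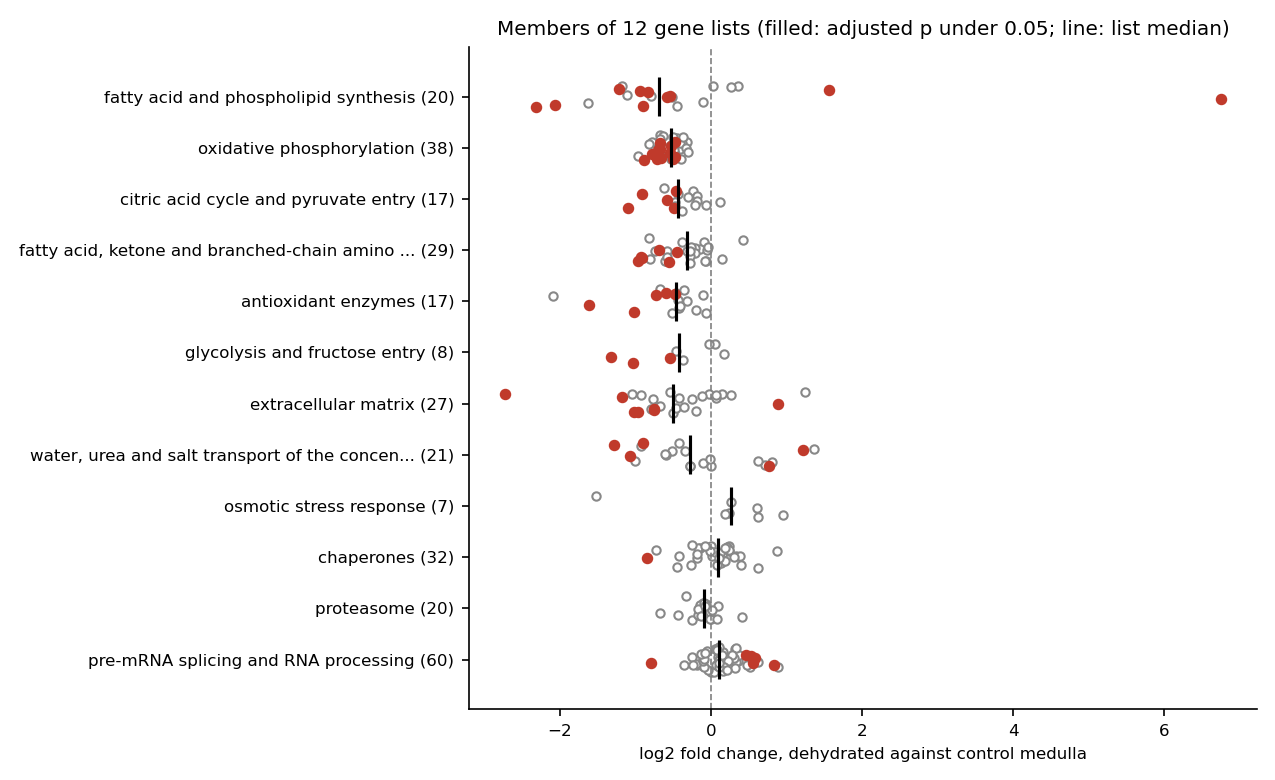
Log2 fold change between dehydrated and control medulla for each member of 12 gene lists, with the number of members in brackets, called genes filled and a bar at the median of each list. All 38 oxidative phosphorylation genes and all 17 antioxidant genes lie below 0, whereas the proteasome (median -0.08) and chaperone (0.10) lists lie around it.

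Markers of the proximal tubule, a mainly cortical segment rich in mitochondria and antioxidant enzymes, differed between the same libraries. Of 12 such markers, 3 fell, SLC17A3 and SLC13A3 among them, 10 were below 0 (median -1.45), and none was at 0 CPM in any of the 10 libraries. Of the 6 named through the protein lists, 1 fell, 4 were below 0 and the median was -0.65. SLC17A3, a phosphate and urate transporter, had 62.4, 4.89, 25.6, 106 and 47.6 CPM in the control and 7.17, 20.6, 1.15, 4.79 and 9.87 CPM in the dehydrated libraries (log2 fold change -2.50, edgeR, adjusted p = 0.0097). The summed markers came to 1400, 278, 900, 2235 and 1954 CPM in control replicates 1 to 5 and to 892, 1100, 227, 468 and 686 CPM in dehydration replicates 1 to 5, against 7135 to 13020 CPM in the control cortex. In the dehydrated cortex they summed to only 3117 to 5119 CPM, and the median of the 12 markers there was -1.40. Their part in the cortex medians given above was not tested. In the medulla the groups overlapped, and control replicate 2 was lower than every dehydrated library but replicate 3. In that control, which is 1 camel, oxidative phosphorylation summed to 14025 CPM and antioxidant enzymes to 2880 CPM, above every dehydrated library. The antioxidant sum of that camel was the lowest among the controls. With the summed level of these markers as a covariate within the medulla, an alternative chosen after seeing the data, 265 genes were called, among them 179 of the 259. Of the lists above, 5 genes of oxidative phosphorylation, 5 of the citric acid cycle and 4 of the antioxidant enzymes then fell, and all 38 oxidative phosphorylation genes stayed below 0 with a median of -0.52. The part of the proximal tubule in the falls of these lists was not tested. SLC13A3, a dicarboxylate transporter, fell by 1.54 and kept its call in 2 of the 10 fits without 1 library, those without control replicate 2 or dehydration replicate 5 (edgeR, adjusted p of up to 0.162).

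**Figure D3:**
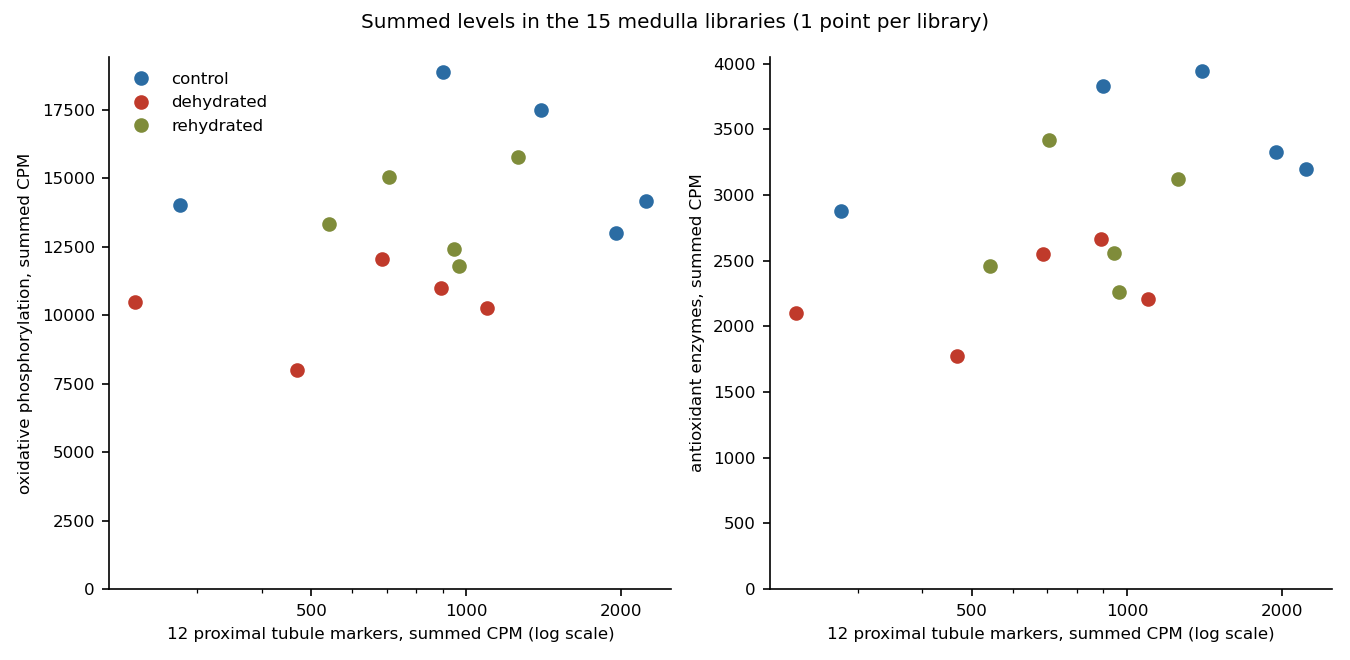
Summed CPM of 38 oxidative phosphorylation genes (left) and 17 antioxidant genes (right) against the summed CPM of 12 proximal tubule markers on a log axis, with 1 point for each of the 15 medulla libraries. Control and dehydrated libraries overlap along the marker axis, and do not overlap on either vertical axis.

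The genes that carry water, urea and salt in the concentrating nephron moved in both directions. Of 21 such genes, 2 rose, 3 fell and 16 were not called, with a median of -0.28, and with DESeq2 4 rose and 6 fell. Of the 7 named through the protein lists, 0 rose and 1 fell. AQP2, the water channel that vasopressin moves to the apical membrane of the collecting duct, had 184, 413, 311, 227 and 297 CPM in the control and 288, 420, 769, 500 and 534 CPM in the dehydrated libraries. The dehydrated camels were the higher group, 1.75-fold in the fit, but dehydration replicate 1 lay among the controls and the log2 difference of 0.81 ± 0.22 was not called (edgeR, adjusted p = 0.0555). With DESeq2 the difference of 0.82 was called (adjusted p = 0.0289), as it was in edgeR without control replicate 2 (adjusted p = 0.0202) or dehydration replicate 1 (adjusted p = 0.0166). AQP3, the basolateral water channel of the same cells, had 32.9, 143, 77.5, 27.0 and 51.5 CPM in the control and 66.1, 149, 330, 134 and 176 CPM in the dehydrated libraries. These overlapped (log2 fold change 1.37 ± 0.49, edgeR, adjusted p = 0.174), while in the cortex AQP3 rose by 2.36 from a lower mean of 7.60 CPM (edgeR, adjusted p = 0.0166). The tissues were not shown to differ in this response (edgeR interaction, adjusted p = 0.799). SLC14A1 had a log2 difference of 0.62 ± 0.36, with 177 to 447 CPM in the dehydrated libraries (edgeR, adjusted p = 0.472). PRKAR2A, a regulatory subunit of the kinase that acts on AQP2, stood at 0.72 ± 0.21 (edgeR, adjusted p = 0.0705).

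Among the salt transporters, SCNN1A, the alpha subunit of the epithelial sodium channel, fell. It had 357, 482, 678, 288 and 503 CPM in the control and 248, 204, 316, 192 and 285 CPM in the dehydrated libraries, which overlap in 1 control and 1 dehydrated library (log2 fold change -0.89 ± 0.21, edgeR, adjusted p = 0.0227). HSD11B2, which inactivates glucocorticoids in cells that respond to aldosterone, had 112, 162, 204, 121 and 184 CPM in the control and 94.2, 62.7, 82.4, 40.1 and 94.1 CPM in the dehydrated libraries, a fall of 1.07 ± 0.24 without overlap (edgeR, adjusted p = 0.0155). In the rehydrated libraries HSD11B2 ranged from 90.4 to 313 CPM, 1.63 ± 0.24 on the log2 scale above the dehydrated libraries (edgeR, adjusted p = 0.000225). SLC9A2, a sodium-proton exchanger, fell by 1.28 from a mean of 5.92 to 2.42 CPM (edgeR, adjusted p = 0.0391). KCNJ8, the pore subunit of a potassium channel gated by ATP, rose from 19.2 to 24.6 CPM to 29.8 to 44.4 CPM, by 0.77 ± 0.18 (edgeR, adjusted p = 0.0209). SLC4A11, a membrane transporter of the bicarbonate transporter family, rose by 1.22 ± 0.29 (edgeR, adjusted p = 0.0261), with 22.0, 36, 115, 53.4 and 36.2 CPM in the dehydrated against 14.6 to 31.4 CPM in the control libraries. Without 1 library, SLC9A2 lost its call in 8 fits (all but control replicate 1 and dehydration replicate 3), SLC4A11 in 5 (control replicates 1, 4 and 5 and dehydration replicates 3 and 4), SCNN1A in 4 (control replicates 3 and 5 and dehydration replicates 2 and 4), HSD11B2 in 2 (control replicate 3 and dehydration replicate 4) and KCNJ8 in 2 (control replicate 5 and dehydration replicate 4). The number of the 21 genes that fell was 0 without control replicate 3 or dehydration replicate 4 and 1 without control replicate 5, and the number that rose was 0 without control replicate 5 or dehydration replicate 4, 1 without control replicate 1 or dehydration replicate 3 and 2 or 3 without each of the other 6. The highest adjusted p in the fits above was 0.11, 0.172, 0.111, 0.064 and 0.0779 for these 5 genes (edgeR).

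ATP1B1, a beta subunit of the sodium pump, stood at -0.59 ± 0.25 (edgeR, adjusted p = 0.269). UMOD had 16633, 17773, 19801, 15177 and 14296 CPM in the control and 18562, 12535, 10594, 12418 and 14888 CPM in the dehydrated libraries (log2 difference -0.28, edgeR, adjusted p = 0.648). The chloride channel CLCN2 (-1.0) and the kinase SGK2 (-0.92) came close to the threshold (edgeR, adjusted p = 0.0613 and 0.0557), and the aldosterone-responsive kinase SGK1 stood at -0.60 (edgeR, adjusted p = 0.37). The tight junction genes CLDN19 (-0.43) and CLDN10 (-0.34), the potassium channel KCNJ16 (-0.28), the potassium-chloride cotransporter SLC12A7 (-0.10), the sodium-proton exchanger SLC9A3 (-0.01) and the adenylate cyclase ADCY6 (0.01) were not called. The last 2 changed sign with the setting.

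**Figure D4:**
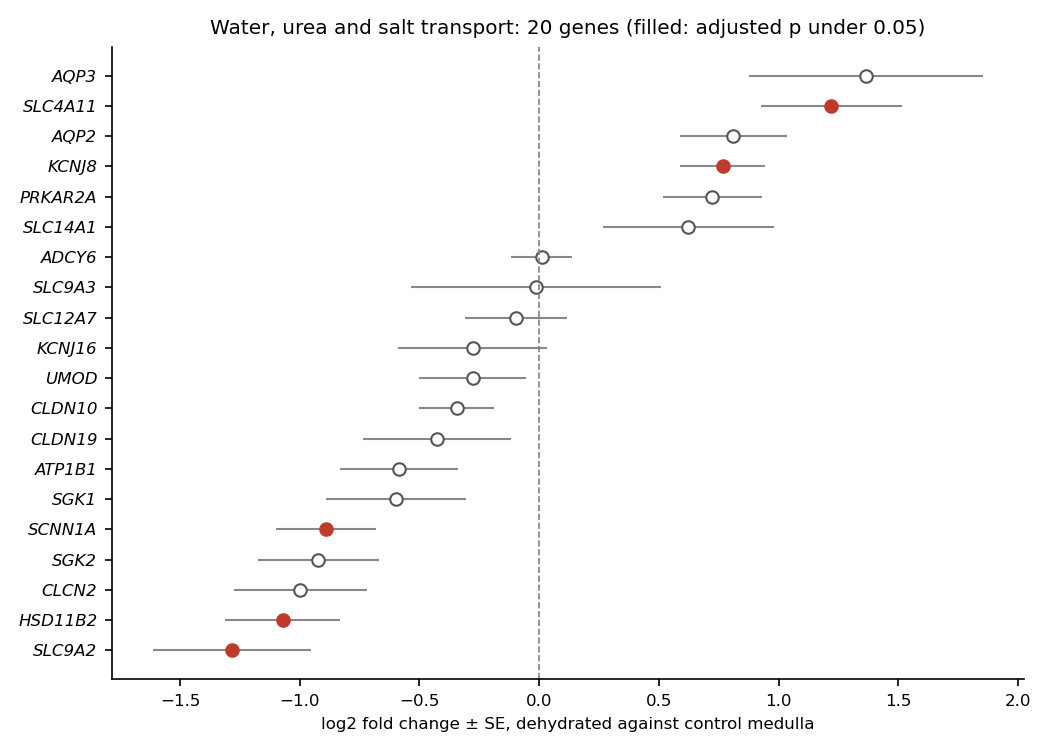
Log2 fold change with its standard error between dehydrated and control medulla for 20 genes of water, urea and salt transport, with called genes filled. AQP3 (1.37) and AQP2 (0.81) lie to the right of 0 without passing the test, and the 3 filled points on the left are SCNN1A, HSD11B2 and SLC9A2.

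Of 18 listed genes of the osmotic stress response 7 were named and tested, and none of these was called. Their median was 0.27, with 3 of 7 at an unadjusted p under 0.05 (edgeR), and 1 was called lower with DESeq2. For this and the lists below, 2066 of all 15376 tested genes had an unadjusted p under 0.05 (edgeR). Of the 3758 genes with a symbol 805 did. SLC6A12, which imports the osmolyte betaine, had 17.9, 26.0, 16.4, 11.6 and 14.1 CPM in the control and 16.3, 33.6, 52.6, 37.2 and 27.6 CPM in the dehydrated libraries (log2 difference 0.96 ± 0.34, edgeR, adjusted p = 0.166). SLC6A6, which imports taurine, stood at 0.62 (edgeR, adjusted p = 0.29). OSGIN1, an oxidative stress response gene, was the single member below 0, at -1.52 (edgeR, adjusted p = 0.0512). Of 32 chaperone genes 1 fell and 0 rose (median 0.10), and of the 29 named through the protein lists 0 were called. That gene was PPIF, the mitochondrial cyclophilin, at -0.84, which lost its call in 7 of the 10 fits (kept without control replicate 4, dehydration replicate 1 or dehydration replicate 3). Of 20 proteasome genes none was called (edgeR, 3 of 20 at an unadjusted p under 0.05, 0 with DESeq2), with a median of -0.08. Of 7 interferon response genes none was called either (edgeR, 4 of 7 at an unadjusted p under 0.05, 3 higher with DESeq2). IFIT1, an antiviral effector, reached 313 and 683 CPM in dehydration replicates 1 and 5 against 54.9 to 94.3 CPM in the other 3 and 40.7 to 117 CPM in the control (log2 difference 1.96 ± 0.63, edgeR, adjusted p = 0.121).

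Of 60 genes of splicing and RNA processing, 5 rose (SAFB, SAFB2, CPSF6 and YLPM1 among them) and 1 fell, with a median of 0.11. Of the 56 named through the protein lists, 3 rose and 0 fell. SAFB and its neighbour SAFB2, scaffold attachment factors that lie end to end on chromosome 22 (23769063 to 23801545 and 23801566 to 23833079), rose by 0.54 and 0.59 (edgeR, adjusted p = 0.0325 and 0.0259). As paralogs they may share reads. YLPM1, a nuclear protein phosphatase 1 partner, rose by 0.47 (edgeR, adjusted p = 0.0252). RBM3, a cold-inducible RNA-binding protein, fell by 0.79 (edgeR, adjusted p = 0.038). The number that rose was 0 without control replicate 1, 2 or 3 or dehydration replicate 3 or 4, 1 without control replicate 5, 2 without dehydration replicate 2 and 5 or 6 without each of the other 3.

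Of 27 extracellular matrix genes, 6 fell and 1 rose, and 21 were below 0 with a median of -0.50. In the cortex the median of the same genes was -0.01, and the difference between the tissues was not tested for the list. Of the 12 named through the protein lists, 1 fell. CCN1, a secreted matricellular regulator, had 158, 253, 245, 212 and 121 CPM in the control and 99.6, 91.0, 91.1, 57.2 and 99.7 CPM in the dehydrated libraries (log2 fold change -1.17 ± 0.23, edgeR, adjusted p = 0.00543). BGN, the proteoglycan biglycan, had 347, 335, 243, 275 and 234 CPM in the control and 169, 126, 241, 149 and 170 CPM in the dehydrated libraries, of which 1 lay within the control range (log2 fold change -0.74 ± 0.15, edgeR, adjusted p = 0.0072). NPNT, the basement membrane protein nephronectin, fell by 0.75 from 319 to 409 CPM to 156 to 270 CPM (edgeR, adjusted p = 0.00996). HAPLN1, a hyaluronan link protein, fell by 2.72 from a mean of 1.57 to 0.222 CPM (edgeR, adjusted p = 0.0025), and 1 dehydrated library held no count of it. COL15A1 and ITGBL1 fell by 1.02 and 0.97. SERPINE2, a protease inhibitor, was the gene that rose (0.88, edgeR, adjusted p = 0.0491), and it was called in none of the 10 fits without 1 library. Of 4 fibroblast markers none was called, and their summed level was 171 to 319 CPM in the control and 105 to 186 CPM in the dehydrated libraries. The part of that cell type in the matrix genes was not tested.

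The summed markers of the other cell types of the medulla overlapped between the groups, while 6 single markers did not: IL1B, CD300E and SCIMP of leukocytes, CLDN19 of the thick ascending limb, HSD11B2 of the principal cell and ATP6V1B1 of the intercalated cell were each lower in every dehydrated library (2.04% of all tested genes were). The 6 thick ascending limb markers summed to 18849 to 23539 CPM in the control and 14080 to 21326 CPM in the dehydrated libraries. Their median sum went from 20371 to 17017 CPM, all 6 had a log2 fold change below 0 (median -0.31), and none was called. The part of the thick ascending limb in the falls of energy metabolism genes was not tested. The 5 principal cell markers summed to 669 to 1273 and 699 to 1504 CPM, with the HSD11B2 and SCNN1A falls given above. The 4 intercalated cell markers summed to 416 to 607 and 254 to 427 CPM. Of these, ATP6V1B1, a proton pump subunit, fell by 0.82 (edgeR, adjusted p = 0.00427), from 237, 236, 288, 220 and 235 CPM to 129, 168, 125, 110 and 158 CPM. The 6 endothelial markers summed to 640 to 769 and 641 to 1063 CPM and none was called. The 5 leukocyte markers summed to 107 to 627 and 96.7 to 579 CPM, and besides IL1B, CD300E, a receptor of myeloid cells, fell by 2.38 (edgeR, adjusted p = 0.00454), while the complement genes C1QA and C1QC stood at 0.19 and 0.18. The 5 smooth muscle markers summed to 458 to 793 and 402 to 696 CPM, and none was called. Podocytes, adipocytes, red blood cells and the distal convoluted tubule had 1 to 3 named markers each, none called, and no named marker of urothelium was tested. Among these other cell types, 1 marker named through the protein lists fell, HSD11B2.

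The most abundant called genes all fell. Beside ATP5F1B and MDH1, they were ATP5F1A, the alpha subunit of ATP synthase (mean 1631 to 1174 CPM, log2 fold change -0.47, edgeR, adjusted p = 0.0488), and SDC4, the cell surface proteoglycan syndecan-4 (1314 to 857 CPM, -0.62, edgeR, adjusted p = 0.0436). The fifth, ENSCDRG00005022363 on chromosome 32 (20140947 to 20144089), carries no symbol in these lists (2107 to 1319 CPM, -0.68, edgeR, adjusted p = 0.0227). ATP5F1A lost its call in 9 of the 10 fits (all but dehydration replicate 5), SDC4 in 8 (all but control replicate 4 and dehydration replicate 1) and ENSCDRG00005022363 in 5 (control replicates 1 to 3 and dehydration replicates 2 and 4), with adjusted p of up to 0.166, 0.152 and 0.0975 (edgeR).

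The response of the medulla differed from that of the cortex for 7 genes (0.0455% of those tested), of which 6 are described, by a test of the difference between the responses that treats the tissues of an animal as independent. With the animal as a block in the 20 libraries, 4 genes were called. WNT7B, PVALB and SLC27A3 kept their call (edgeR interaction, adjusted p = 0.00113, 0.0101 and 0.0271), and MYO1A, HARBI1 and KYAT1 lost it (0.14, 0.205 and 0.218). WNT7B, a Wnt ligand, had 83.0 to 161 CPM in the control and 109 to 188 CPM in the dehydrated medulla (log2 difference 0.11 ± 0.34), whereas in the cortex its mean went from 0.907 to 21.3 CPM (4.61). The difference between the tissues was -4.49 ± 0.63 (edgeR interaction, adjusted p = 0.00105). The dehydrated cortex, at 11.1 to 37.9 CPM, remained under every medulla library. PVALB, the calcium-binding parvalbumin, and MYO1A, a myosin of brush borders, rose with dehydration in the cortex (2.21 and 1.96) and stood at -0.72 and -0.95 in the medulla, where neither was called. Their differences were -2.93 and -2.90 (edgeR interaction, adjusted p = 0.0182 each). The level of PVALB in the control medulla was low, at 1.93 to 3.17 CPM.

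SLC27A3 had 36, 35.7, 47.5, 29.8 and 33.5 CPM in the control and 25.8, 17.2, 12.8, 13.9 and 17.0 CPM in the dehydrated medulla. In the cortex it stood the other way, from 9.17 to 16.7 CPM in control to 21.2 to 24.5 CPM in dehydrated camels, and the difference was -1.82 ± 0.33 (edgeR interaction, adjusted p = 0.0182). KYAT1, a kynurenine aminotransferase, stood at -0.45 in the medulla and 0.59 in the cortex (difference -1.04, edgeR interaction, adjusted p = 0.0485). HARBI1, a gene derived from a transposase, stood at 0.39 and -0.66 (difference 1.04, edgeR interaction, adjusted p = 0.0239). The number of such genes was 21 with control replicate 3 of the cortex left out, 19 with dehydration replicate 1 of the medulla left out, 3 with either dehydration replicate 4 of the medulla or dehydration replicate 3 of the cortex left out, and 1 with control replicate 3 of the medulla or control replicate 2 of the cortex left out.

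**Figure D5:**
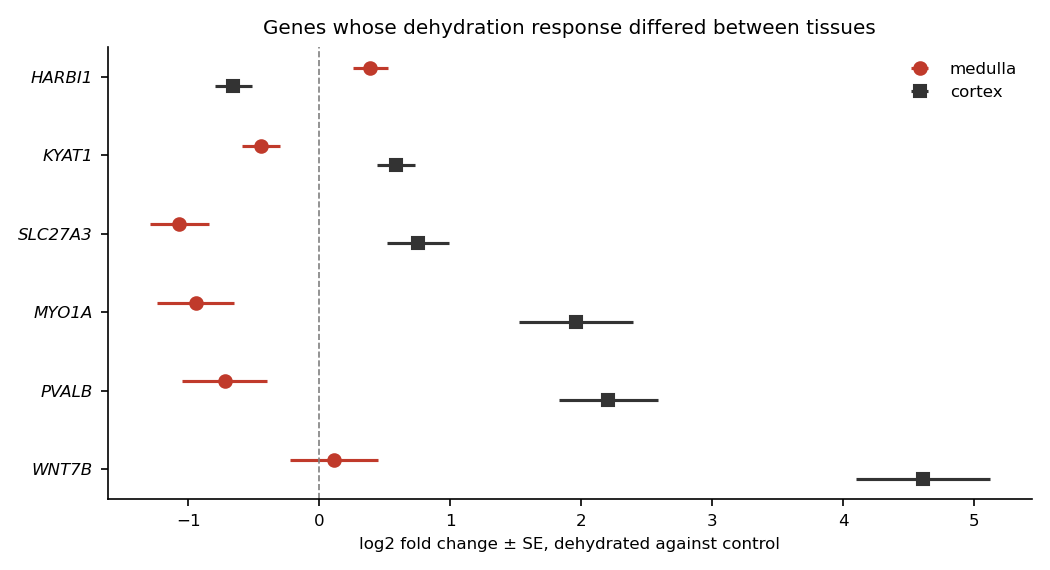
Log2 fold change with its standard error between dehydrated and control camels in the medulla (circles) and cortex (squares) for 6 genes whose response differed between the tissues. WNT7B is at 0.11 in the medulla and 4.61 in the cortex, and HARBI1 (0.39 and -0.66) has its medulla point to the right of its cortex point.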

How the data were processed

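Poly(A)-selected libraries of kidney cortex and medulla were sequenced on a NextSeq500 by the authors, who trimmed reads with BBDuk, aligned them to CamDro2 and deposited counts of read pairs per gene, made with featureCounts against Ensembl release 100, strand-specifically. Which aligner was used remains unclear, as STAR appears in the methods but the columns carry names given by Rsubread. The deposited counts were not normalized, and the authors' own tests used DESeq2 (version 1.31.18 in the submitters' processing notes). Columns with the authors' fold changes and p-values were not used.

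Counts of all 30 libraries were fitted with edgeR 4.0.16 (R 4.3.3, glmQLFit and glmQLFTest, 6 groups, TMM, filterByExpr with a minimum count of 10 and a minimum total of 15), and the medulla contrast was tested two-sided with Benjamini-Hochberg adjustment over 15376 genes. The library totals were 16799212 to 20005136 in the medulla comparison. The tests rest on a spread between libraries pooled over the 6 groups, without a term for the animal. CPM values use TMM-scaled library sizes. Symbols were taken from the identifier and name columns of the study's supplementary lists, which named 3758 of the tested genes. The rehydrated camels serve for tissue preference and as a further set of levels.

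The genes named are the 15 highest and 15 lowest called genes with a known symbol, without overlap between groups and at 1 CPM or more on average, sterol genes left out, up to 4 called members of each list of lowest adjusted p, all named water, urea and salt transport genes, the 5 most abundant called genes, the genes of the interaction test, and called cell type markers. Some genes that the rule selects are not reported here. Further members of a list were named after their values were seen. The members and lists were chosen with earlier results of these data known. Lists with fewer than 5 named genes were not summarised by a median. Alternatives were DESeq2 1.42.0, limma-voom (limma 3.58.1), other scalings, filters and thresholds, RNA integrity as a covariate, fits of the medulla alone, a replicate block and each library left out. The procedure was tested on simulated data in which all libraries were drawn as independent. These held no baseline difference between tissues and no link between the tissues of a camel. The control and dehydrated camels with the same number are different animals, and the correlation of their deviations from the group means ran from -0.360 to 0.440.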

Additional observations from a re-analysis of the deposited data

Results flagged for a closer look

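Of 98 named genes looked at in both groups of 5 medulla libraries, 12 had 1 library far from the other 4 of its group, where chance gives about 1 in 20 groups, or 9.8 of 196. Control replicate 4 stood apart in 3 of them, with INSIG1 at 26.98 CPM, SLC12A7 at 25.3 CPM and YLPM1 at 64.56 CPM. Control replicate 2 stood apart with GABRA4 at 0.1234 CPM and PFKM at 126.1 CPM, and control replicate 3 with ATP6V1B1 at 288.2 CPM and PVALB at 3.172 CPM. KYAT1 stood at 247.8 CPM in control replicate 5. In the dehydrated camels, replicate 1 stood apart with ACSS1 at 114.2 CPM and CLCN2 at 5.054 CPM, replicate 2 with CRYBG2 at 3.259 CPM and replicate 4 with CCN1 at 57.21 CPM.

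The dehydration response differed between medulla and cortex in the interaction test of edgeR for 7 genes, of which 6 are described. The medulla response minus the cortex response on the log2 scale was -4.494 for WNT7B, -2.929 for PVALB, -2.904 for MYO1A, -1.824 for SLC27A3, -1.036 for KYAT1 and 1.044 for HARBI1.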

How the results depend on the processing

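The 259 calls in the medulla (81 higher, 178 lower, 88 of them in the gene lists) became 91 (22, 69, 40) at an adjusted p under 0.01, 393 (124, 269) with DESeq2, 89 (28, 61, 38) with the 15 medulla libraries alone, and 94 (27, 67, 43) with the 10 alone. With RNA integrity as covariate 180 genes were called, 43 of them higher, and 175 of the 259 calls were kept. With edgeR's earlier quasi-likelihood method, an alternative chosen after seeing the data, 149 were called (35, 114). Without each library in turn the counts ran from 113 to 263 in all, 30 to 90 higher, 83 to 184 lower and 43 to 80 in the lists. Same-numbered control and dehydrated camels share only a number, and 0 of 5 controls correlated best with its own. With that number as a replicate block, 37 genes were called (6, 31, 24). The 7 genes that differed between tissues became 1 at an adjusted p under 0.01, 56 with DESeq2, 12 with library size alone, 4 with the 20 libraries alone, 4 with the animal as a replicate block and 21 with the proximal tubule covariate, and 1 to 21 without each library in turn.

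Of the genes named, none that was called changed direction. Among those not called, SLC9A3 turned positive with DESeq2 (0.0035), library size alone (0.0522), RNA integrity (0.0343) and in 4 fits without 1 library (-0.236 to 0.215 over all 10), ADCY6 turned negative with RNA integrity (-0.0284), the proximal tubule covariate (-0.113) and in 4 fits without 1 library (-0.058 to 0.101), and WNT7B with that covariate (-0.0601) and in 2 fits without 1 library (-0.0253 to 0.23). Of the 77 named and called genes, 45 kept their call without each library and 11 in the other 13 alternatives. Counts near 1 CPM, as for HAPLN1, EMB and HAL, carry more counting error than the rest.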

Other observations

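The following genes were picked after their values were seen. RANBP3L, of the Ran-binding protein family, was among the more abundant genes that rose, with 35.8, 42.0, 27.3, 51.6 and 32.6 CPM in the control and 47.4, 230, 189, 240 and 92.3 CPM in the dehydrated libraries (log2 fold change 2.08 ± 0.51, edgeR, adjusted p = 0.0278). Dehydration replicate 1 lay within the control range, and of the rehydrated camels 3 had 20.2 to 42.0 CPM and the other 2 had 190 and 202 CPM. C6, which joins C7 in the complement membrane attack complex and lies near it on chromosome 3, rose by 2.35 from a low mean of 0.322 to 1.71 CPM (edgeR, adjusted p = 0.0422), with dehydration replicate 1 at 0.138 CPM.

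Of the 259 called genes, 46 carry no symbol in the lists used, 14 of them higher and 32 lower in dehydration.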
